A study of Mus musculus with 4 samples.

Results

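The genes described here encode the enzymes that handle peroxides, superoxide and reactive electrophiles with glutathione or thioredoxin. They are the cytosolic and microsomal glutathione transferases, the glutathione peroxidases, the peroxiredoxins, the superoxide dismutases with catalase, and the thioredoxins and their partners. Members were picked by gene name: every probe set whose only gene symbol in the platform annotation belongs to these families. The choice was made with earlier results of these data known. The name rule gave 44 genes read by 76 probe sets, of 18193 genes and 34945 probe sets with 1 symbol on the array. The peroxiredoxins read were Prdx2, Prdx3 and Prdx4, and the other peroxiredoxins were not analysed here.

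Glutathione is a small thiol made in the cytosol. Transferases couple it to electrophiles, glutathione peroxidases spend it to reduce hydrogen peroxide and lipid peroxides, and glutathione reductase restores it. Peroxiredoxins do the same work with electrons from thioredoxin, while superoxide dismutases make the hydrogen peroxide that catalase and the peroxidases remove. In brain, astrocytes are known as a glutathione-rich cell type that exports glutathione and its precursors for neurons to use.

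Expression was measured on Affymetrix arrays in primary cultures of cerebral cortex from C57BL6 mice, with 2 arrays of neurons and 2 of astrocytes. Neurons came from fetuses at embryonic day 16, were grown for 7 days by the series description, and were kept in 1% fetal calf serum with 19.4 mM glucose, 4 mM glutamine, insulin, transferrin, progesterone, putrescine and 30 nM selenite. Astrocytes came from newborn animals, were grown for 20 days by the same description, and were plated and fed in 10% serum with 33 mM glucose and 2 mM glutamine and no added selenite; the protocol text gives a shorter common period for all assays. The labels name no drug and no genetic change in either group. Donor age, medium and time in culture changed together with cell type, so these cannot be told apart. The titles call the arrays biological replicates but name no animals or cultures, and p-values measure only the spread between these samples.

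The cultures carried the markers of their labels, with other cells present. All 12 neuron markers rose in neurons, with a summed signal of 35157 to 35421 there against 2972 to 3170 in astrocytes. Of 11 astrocyte markers tested, 8 were higher in astrocytes and 2 in neurons, with sums of 20242 to 20732 against 9110 to 10301. Of 10 tested markers of fibroblasts and meninges, 7 were higher in astrocytes and 2 in neurons (sums of 10179 to 10320 against 737 to 861). The same held in astrocytes for 8 of 10 microglia and macrophage markers (1136 to 1140 against 271 to 313) and 3 of 5 endothelial and mural markers (7990 to 8770 against 247 to 671), with none higher in neurons. Of 12 endothelial and mural markers, 3 were above background on both neuron arrays and 6 on both astrocyte arrays. The 3 higher in astrocytes were Acta2 (4544 and 4791 there), Tagln (2691 and 3331) and Pdgfrb (561 and 479), which is also in the fibroblast list. Among the other mural ones, Rgs5 did not pass (22 and 27 in neurons, 36 and 32 in astrocytes). Kcnj8 and Abcc9 were not above background on both arrays of a group. Among the endothelial ones, Kdr was above it on all 4 arrays (29 and 42 in neurons, 50 and 42 in astrocytes) and did not pass, Cdh5 was above it in astrocytes only (29 and 29), and Pecam1, Cldn5, Tek and Flt1 were not above it on both arrays of a group. Of 15 microglia and macrophage markers, 3 were above background on both neuron arrays and 11 on both astrocyte arrays; Aif1, P2ry12, Trem2 and Itgam were not above it on both arrays of a group. Astrocytes also had the higher values of 4 of 4 markers of ependyma and choroid plexus (1164 to 1284 against 212 to 244). Oligodendrocyte markers were mixed, with 4 of 7 higher in neurons and 2 in astrocytes (sums of 4953 to 5740 in neurons and 5555 to 6143 in astrocytes). Higher in neurons were Pdgfra (1177 and 1302 against 19 and 21), Mbp (420 and 431 against 16 and 16), Sox10 and Cspg4. Pdgfra, Mbp and Sox10 were bright enough to be tested through the neuron arrays alone. Olig1, the brightest (2899 and 1895 in neurons, 3500 and 3997 in astrocytes), and Cnp were higher in astrocytes. No erythroid marker of 6 with a probe set lay above background on both arrays of a group. The part of these other cells in the differences below was not tested.

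More of these genes were higher in astrocytes than in neurons. Of the 44 genes, 35 had a probe set bright enough to be tested. Of these, 19 (54.3%) were higher in astrocytes and 5 (14.3%) higher in neurons; among all 12040 genes tested these shares were 31.1% and 31.0%. Called in either direction were 24 members (68.6%), against 62.2% of all genes, a share near that background. Both member counts fell with any 1 array left out, which leaves 1 array in a group, and so did the counts over all genes. Differences of at least 2-fold were found for 15 genes in astrocytes and 3 in neurons, against 18.8% and 18.0% of all genes. By probe set, 26 of 57 tested were higher in astrocytes and 10 in neurons, against 27.7% and 29.4% of all probe sets tested. The median log2 fold change (neurons minus astrocytes) was -0.72 over the 35 genes and 0.02 over all genes tested. The 2 neuron and 2 astrocyte values did not overlap for 30 of the 35 genes (85.7%, against 81.9% of all genes). In whole cultures, fewer cells of a type and less RNA per cell cannot be told apart.

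**Figure D1:**
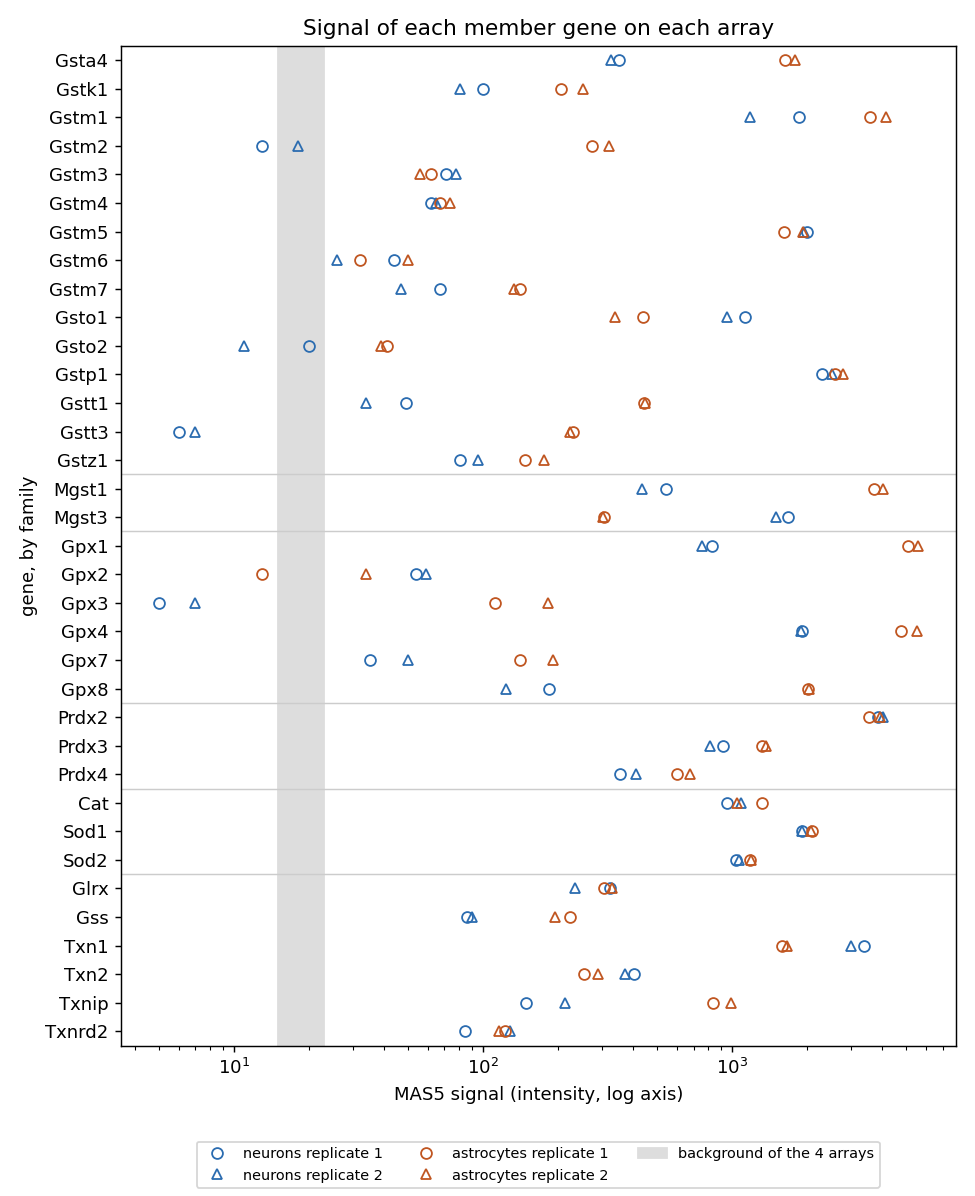
MAS5 signal of the 35 tested genes (rows, by family) on each of the 4 arrays, on a log axis; the grey band spans the background level of the arrays. Gpx8, Gstt1 and Mgst1 lie far higher in astrocytes, Mgst3 and Txn1 lie higher in neurons, and Sod1, Cat and Prdx2 lie close together.

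Each probe set has 1 value per array, a MAS5 signal on a linear scale. Differences were tested with limma on log2(signal + 12.5), with Benjamini-Hochberg adjustment over 25019 probe sets and a threshold of 0.05. Each gene was read by its probe set with the highest mean. A fold change is on that offset scale and understates the change of dim genes. Background is the highest signal among 27 control probe sets for bacterial transcripts; it was 21 and 23 for neurons, and 17 and 15 for astrocytes. Where neither array of the dimmer group exceeded it, the fold is a lower bound, written "at least", of the brighter signals over that background. This applied to 4 members higher in astrocytes (3.04% of all genes) and 0 higher in neurons (3.11%).

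The filter on dim probe sets favours genes that are high in one group. Gpx3, Gstm2, Gsto2 and Gstt3 were kept through the astrocyte arrays alone, and no member was kept through the neuron arrays alone. Among the other 31 members, 15 were higher in astrocytes and 5 in neurons, where 29.4% and 28.0% of genes of the same kind were called. With no filter, 19 of 44 members were higher in astrocytes and 4 in neurons, where 18.4% and 18.6% of all genes were called, and the median was -0.26.

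Cytosolic glutathione transferases couple glutathione to drugs, lipid aldehydes and other electrophiles. Of 20 genes, 15 were tested: 9 were higher in astrocytes, 1, Gsto1, was higher in neurons, and 5 did not pass. Of the 9, Gstm2, Gsto2 and Gstt3 were kept through the astrocyte arrays alone. Among all genes tested, 31.1% were higher in astrocytes and 31.0% in neurons, and these shares also apply to the families that follow. The theta class takes small halogenated compounds among its substrates, and both of its tested genes were higher in astrocytes. Gstt3 had signals of 6 and 7 in neurons and 230 and 224 in astrocytes, at least 10.3-fold higher in astrocytes (log2 fold change -3.66 ± 0.20 SE, adjusted p = 1.73e-06). Gstt1 was at 49 and 34 in neurons and at 441 and 448 in astrocytes, 8.55-fold higher there (-3.10 ± 0.19, adjusted p = 2.74e-06). The neuron arrays lay under background for Gstt3 and slightly above it for Gstt1, and the astrocyte arrays lay close to each other for both. The other theta genes, Gstt2 and Gstt4, reached no more than 15 on any array and were not tested.

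These genes lie side by side on chromosome 10 in the order Ddt, Gstt3, Gstt1, Gstt4, Gstt2 and Mif by the GRCm38.p6 gene table. Mif, whose product is a cytokine with thiol oxidoreductase activity, differed in direction from Gstt3 and Gstt1; Gstt2 and Gstt4, which lie between them and Mif, were not tested. Mif was at 4145 and 4344 in neurons and 1779 and 2144 in astrocytes, 2.17-fold higher in neurons (adjusted p = 7.33e-05); it was singled out after its value was seen. With a larger offset of 50 the log2 fold change was -2.29 for Gstt3 and -2.44 for Gstt1, and with a smaller one of 3.12 it was -4.58 for Gstt3.

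The mu class is a cluster of genes on chromosome 3, in the order Gstm5, Gstm7, Gstm6, Gstm3, Gstm2, Gstm1 and Gstm4, and its members did not move together. Gstm2 was at 13 and 18 in neurons and at 273 and 321 in astrocytes, at least 13.5-fold higher in astrocytes (-3.47 ± 0.20, adjusted p = 2.21e-06). Its neuron signals were under background and its astrocyte signals well above it. Gstm1, next to it, was at 1857 and 1179 in neurons and at 3593 and 4166 in astrocytes, 2.60-fold higher (-1.38 ± 0.20, adjusted p = 0.000387). All 4 of its probe sets were higher in astrocytes, with log2 fold changes from -1.51 to -0.70; its brightest probe set no longer passed once astrocytes replicate 2 was left out (adjusted p = 0.0626). Gstm5, the mu gene known for its expression in brain and testis, did not pass: it was at 2005 and 1939 in neurons and at 1614 and 1921 in astrocytes (0.16 ± 0.12, adjusted p = 0.282). Gstm3, Gstm4 and Gstm6 did not pass either, with log2 fold changes between -0.18 and 0.28 at signals from 26 to 78. A second Gstm3 probe set, too dim to be tested, read 2 and 2 in neurons and 25 and 24 in astrocytes, above background in astrocytes only and in the other direction from the 0.28 of the brighter one. The log2 fold change of Gstm2 was -2.40 with the larger offset. Mu genes are close in sequence, and the probe sets that read Gstm1 and Gstm3 are of the kinds that can match several transcripts, so the split between mu genes is uncertain.

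Gstm7 gave opposite answers from its 2 probe sets. The brighter read 67 and 47 in neurons and 141 and 133 in astrocytes, 2.17-fold higher in astrocytes (adjusted p = 0.00185). The other read 52 and 88 in neurons and 45 and 22 in astrocytes, 1.81-fold higher in neurons (adjusted p = 0.0479). Their mean gave no call (-0.13, adjusted p = 0.586), and the brighter did not pass when astrocytes replicate 1 (adjusted p = 0.0608) or 2 (adjusted p = 0.0535) was left out. Gstm7 was the only member called in both directions of 14 with several tested probe sets; among all genes the share was 3.18%.

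Gsta4, the alpha-class transferase specialised for 4-hydroxynonenal and related products of lipid peroxidation, was at 350 and 326 in neurons and at 1624 and 1784 in astrocytes. This is a 4.90-fold excess in astrocytes (-2.29 ± 0.12, adjusted p = 1.40e-06). The alpha genes Gsta2 and Gsta3 were at 16 or less on every array and were not tested. Gstk1, the mitochondrial and peroxisomal kappa enzyme, was at 100 and 81 against 205 and 252, 2.34-fold higher in astrocytes (adjusted p = 0.000585). Gstz1, which isomerises maleylacetoacetate in tyrosine breakdown, was 1.73-fold higher in astrocytes (adjusted p = 0.00591) but did not pass when neurons replicate 1 (adjusted p = 0.0644) or astrocytes replicate 2 (adjusted p = 0.0833) was left out.

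The omega pair, neighbours on chromosome 19, differed in direction. Gsto1, a thioltransferase that also reduces dehydroascorbate, was at 1123 and 950 in neurons and 438 and 338 in astrocytes. It was 2.63-fold higher in neurons (1.40 ± 0.16, adjusted p = 0.000107), and its other probe set gave 2.25-fold (adjusted p = 0.000196). The neuron values lay far above both astrocyte values. Gsto2 was dim, at 20 and 11 in neurons and 41 and 39 in astrocytes, at least 1.82-fold higher in astrocytes (adjusted p = 0.0165). Its call was lost with no filter (adjusted p = 0.0599) and without neurons replicate 2, astrocytes replicate 1 or astrocytes replicate 2 (adjusted p = 0.0767, 0.108 and 0.0966). Gstp1, the pi transferase, was bright in both cultures at 2289 and 2518 against 2592 and 2791 and did not pass (-0.16 ± 0.11, adjusted p = 0.232). Gstp3, from the same cluster, was at 18 or less on every array.

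The microsomal transferases Mgst1 and Mgst3 moved in opposite directions, each by a large amount. Mgst1, a membrane enzyme of the endoplasmic reticulum and outer mitochondrial membrane with peroxidase activity, was at 544 and 435 in neurons and 3727 and 4025 in astrocytes. It was 7.79-fold higher in astrocytes (-2.96 ± 0.13, adjusted p = 6.37e-07). Mgst3, a relative of leukotriene C4 synthase that also reduces lipid hydroperoxides, was at 1677 and 1504 in neurons and 305 and 304 in astrocytes. It was 5.05-fold higher in neurons (2.34 ± 0.12, adjusted p = 1.30e-06), the largest excess in neurons among the 35 tested members. Replicates lay close together in both cases. Mgst2 was at 24, 18, 28 and 35 and was too dim to be tested.

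**Figure D2:**
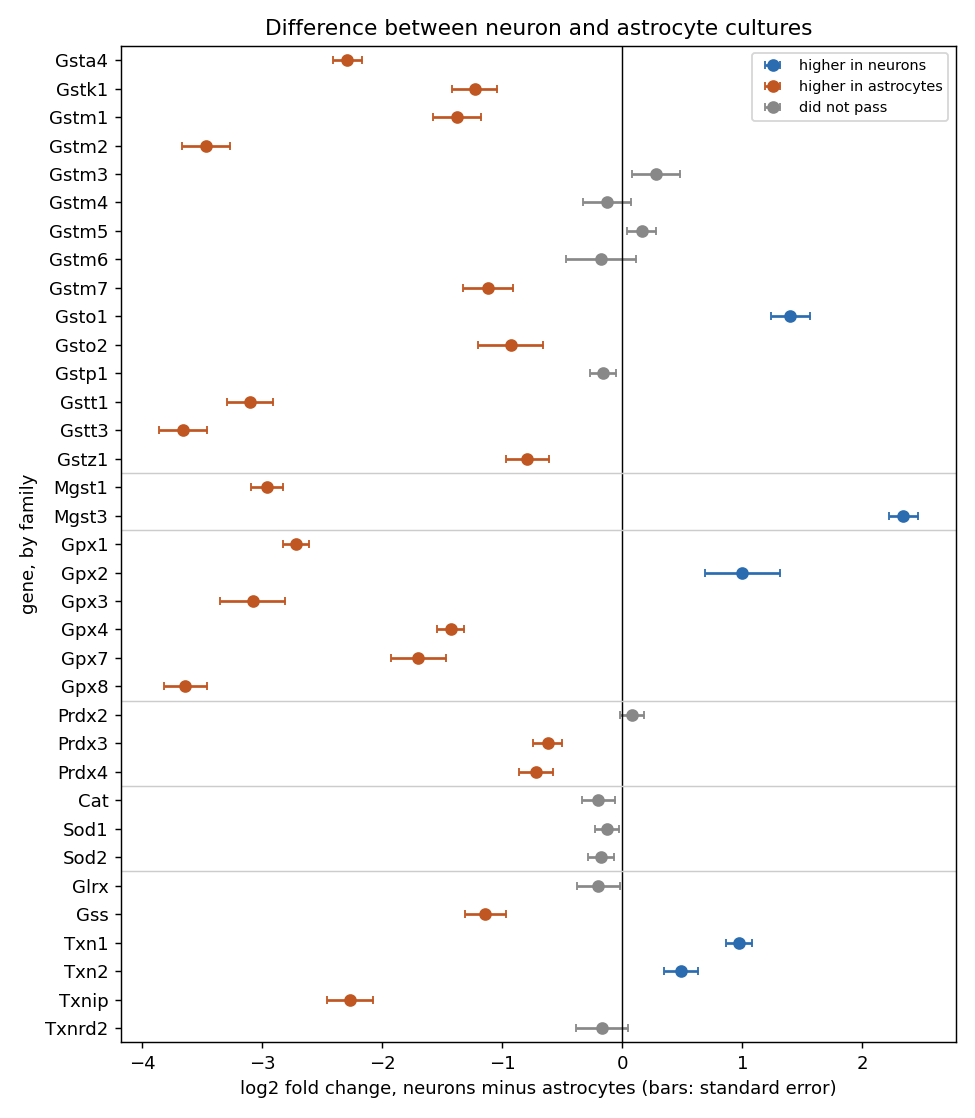
Log2 fold change (neurons minus astrocytes) of each tested gene, with its standard error; colour gives the call. Most points lie on the astrocyte side, down to -3.66 for Gstt3, while Mgst3 (2.34) and Gsto1 (1.40) lie farthest on the neuron side.

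Many genes of this kind are known targets of NRF2, a transcription factor that binds the antioxidant response element. RefSeq promoters (GRCm38.p6, 250 bases before to 50 after the start) were matched to 41 members; Gsta4, Gstt2 and Sod3 had no entry. The core TGACNNNGC, searched on both strands, was in 12.4% of 32851 promoters, and 14.0% of 27025 genes had it in at least 1 promoter. It was in 5 of the 41 members: Gsta3, Gstm5, Gstm7, Mgst1 and Sod1. By call it was in 2 of 18 members higher in astrocytes, 0 of 5 higher in neurons and 2 of 11 that did not pass. The looser TGANNNNGC, which includes the first, was in 45.0% of genes and in 16 of 41 members: 5 of 18, 2 of 5 and 5 of 11 by call. The share of members holding either form was thus not above that of all genes. The stretches below are the 150 bases before the start. They are shown because Mgst1, Gstm5 and Sod1 carry the core at a like distance, and Gstp1 carries the looser form. Mgst1 was higher in astrocytes, and Gstm5, Sod1 and Gstp1 did not pass. A part of the element in these values was not tested. Capitals mark the match; in Mgst1, Sod1 and the second match of Gstp1 it lies on the opposite strand, so the letters shown are its reverse complement. Mgst1 has 2 promoter entries, and the one with the match is shown.
Mgst1 (chr6:138140377-138140526, plus strand, match starting 56 bases before the start): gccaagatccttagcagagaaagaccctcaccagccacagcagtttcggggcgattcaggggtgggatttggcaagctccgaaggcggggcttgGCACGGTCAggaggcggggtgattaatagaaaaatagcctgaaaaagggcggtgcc
Gstm5 (chr3:107895704-107895853, plus strand, match starting 42 bases before the start): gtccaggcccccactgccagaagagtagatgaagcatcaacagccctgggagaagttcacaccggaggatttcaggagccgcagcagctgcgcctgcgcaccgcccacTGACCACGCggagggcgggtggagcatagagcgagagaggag
Sod1 (chr16:90220612-90220761, plus strand, match starting 56 bases before the start): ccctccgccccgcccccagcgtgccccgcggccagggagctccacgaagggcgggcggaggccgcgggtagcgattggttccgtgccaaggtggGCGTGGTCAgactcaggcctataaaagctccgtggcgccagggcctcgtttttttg
Gstp1 (chr19:4037913-4038062, minus strand, matches starting 74 and 9 bases before the start): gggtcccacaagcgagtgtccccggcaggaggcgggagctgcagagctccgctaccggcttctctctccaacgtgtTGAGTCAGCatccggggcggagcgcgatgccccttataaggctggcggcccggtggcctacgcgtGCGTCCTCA

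Most glutathione peroxidases were higher in astrocytes. Of 8 genes, 6 were tested: Gpx1, Gpx3, Gpx4, Gpx7 and Gpx8 were higher in astrocytes and Gpx2 was higher in neurons. Gpx3 was kept through the astrocyte arrays alone. Gpx1, the abundant cytosolic selenoenzyme that removes hydrogen peroxide, was at 831 and 757 in neurons and 5070 and 5555 in astrocytes. It was 6.60-fold higher in astrocytes (-2.72 ± 0.11, adjusted p = 4.25e-07). Gpx4, the selenoenzyme that reduces phospholipid hydroperoxides in membranes and guards against ferroptosis, was at 1911 and 1891 in neurons and 4758 and 5531 in astrocytes. It was 2.69-fold higher in astrocytes (-1.43 ± 0.11, adjusted p = 1.13e-05) and 3.22-fold by its other probe set. Both genes had a strong signal in neurons as well, and in each case every astrocyte value lay above every neuron value.

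Gpx8 and Gpx7, peroxidases of the endoplasmic reticulum that use cysteine in place of selenocysteine, were also higher in astrocytes. Gpx8 was at 184 and 124 in neurons and 2019 and 2032 in astrocytes, 12.4-fold higher (-3.64 ± 0.18, adjusted p = 8.77e-07). Gpx7 was at 35 and 50 against 141 and 191, 3.24-fold higher (-1.70 ± 0.23, adjusted p = 0.000291). Gpx3, the secreted peroxidase of plasma, was at 5 and 7 in neurons and at 112 and 183 in astrocytes, at least 6.51-fold higher (adjusted p = 2.29e-05). On the offset scale its log2 fold change was -3.08, with -1.79 at the larger offset and -4.01 at the smaller.

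Gpx2, best known from gut epithelium, was the exception. It was at 54 and 59 in neurons and 13 and 34 in astrocytes, 2.00-fold higher in neurons (1.00 ± 0.31, adjusted p = 0.0226). All 4 values were low, and 1 of the astrocyte arrays lay under background. The call was lost with no filter (adjusted p = 0.0996), without neurons replicate 1 (adjusted p = 0.173) or 2 (adjusted p = 0.204) and without astrocytes replicate 1 (log2 fold change 0.57, adjusted p = 0.117). Gpx5 and Gpx6 were at 20 or less on every array and were not tested.

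Of the 3 peroxiredoxins, 2 were higher in astrocytes, both by less than 2-fold. Prdx3, the mitochondrial enzyme, was at 922 and 813 in neurons and 1314 and 1362 in astrocytes, 1.54-fold higher in astrocytes (-0.62 ± 0.12, adjusted p = 0.00218). Prdx4, the enzyme of the endoplasmic reticulum, was at 355 and 411 against 603 and 676, 1.65-fold higher in astrocytes (-0.72 ± 0.14, adjusted p = 0.00224). Without astrocytes replicate 2 neither passed (adjusted p = 0.0521 for Prdx3 and 0.0619 for Prdx4). The other tested Prdx4 probe sets gave -0.63 and -0.26 and did not pass.

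Prdx2, the cytosolic peroxiredoxin abundant in neurons and red cells, depended on the probe set. Its brighter probe set read 3870 and 4033 in neurons and 3544 and 3934 in astrocytes, with overlapping groups (0.08 ± 0.10, adjusted p = 0.535). The other read 1700 and 1754 in neurons and 451 and 576 in astrocytes, 3.33-fold higher in neurons (1.74 ± 0.14, adjusted p = 1.40e-05). The mean of both gave 0.91 (adjusted p = 0.000142). The arrays do not say which transcripts each probe set reads.

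Superoxide dismutases and catalase did not pass in either direction by their brightest probe sets (0 of 3 tested). Sod1, the cytosolic copper-zinc enzyme, was at 1901 and 1914 in neurons and 2089 and 2082 in astrocytes (-0.13 ± 0.10, adjusted p = 0.317). Sod2, the manganese enzyme of mitochondria, was at 1035 and 1061 against 1182 and 1194 (-0.18 ± 0.11, adjusted p = 0.198). Catalase, the peroxisomal enzyme encoded by Cat, was at 955 and 1085 against 1320 and 1044 (-0.20 ± 0.14, adjusted p = 0.261). The groups overlapped for Cat, whereas for Sod1 and Sod2 the astrocyte values lay slightly above the neuron values.

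Other probe sets of these genes did pass, in different directions. A probe set for Sod2 read 519 and 380 in neurons and 175 and 145 in astrocytes, 2.66-fold higher in neurons (1.41 ± 0.19, adjusted p = 0.000255), while the remaining Sod2 probe sets gave -0.13 and 0.33 and did not pass. With its probe sets averaged, Sod2 passed in the neuron direction (0.36, adjusted p = 0.0296). A dimmer Sod1 probe set was 1.40-fold higher in neurons (198 and 194 against 135 and 139, adjusted p = 0.0280), with no call after averaging (0.02). A second Cat probe set was 1.43-fold higher in astrocytes (447 and 450 against 702 and 598, adjusted p = 0.0101), and Cat passed with its probe sets averaged (-0.36, adjusted p = 0.0339). Sod3, the extracellular enzyme, was at 6 and 12 in neurons and 30 and 57 in astrocytes, above background on the astrocyte arrays only, and was too dim to be tested.

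**Figure D3:**
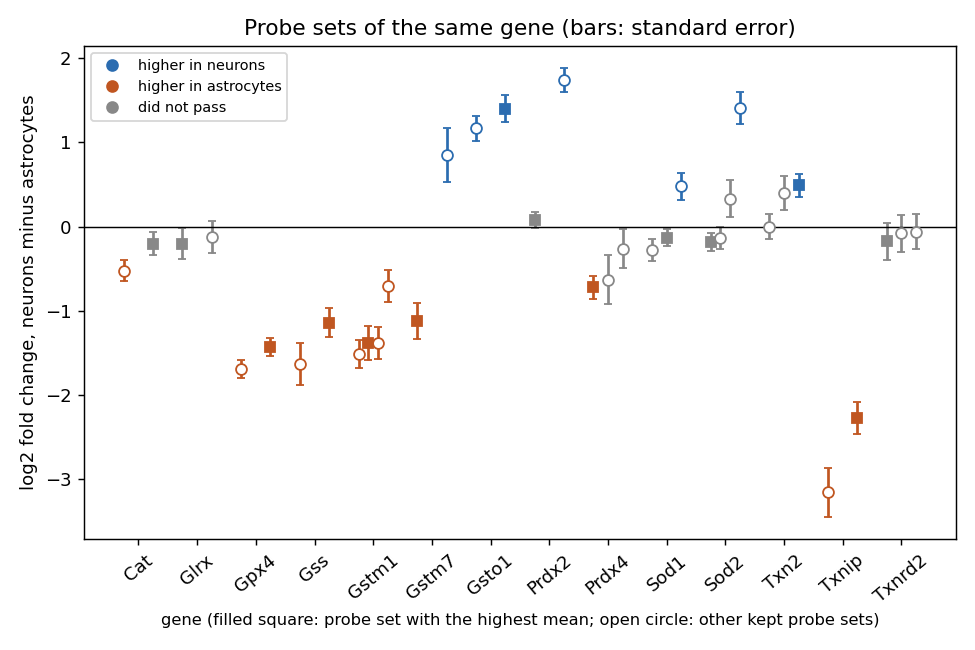
Log2 fold change with its standard error for each tested probe set of the 14 genes that have several; squares mark the probe set with the highest mean and circles the others, coloured by call. Gpx4, Gsto1, Gss and Txnip agree in sign, while Gstm7, Sod1 and Sod2 have probe sets on both sides of 0. The dimmer Txnip probe set was kept through the astrocyte arrays alone. Both Prdx2 probe sets lie above 0, at 0.08 and 1.74.

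Txn1 was higher in neurons, and Txn2 was so by its brightest probe set alone. Txn1, the cytosolic thioredoxin that supplies peroxiredoxins with electrons, was at 3378 and 3010 in neurons and 1590 and 1660 in astrocytes, 1.96-fold higher in neurons (0.97 ± 0.11, adjusted p = 0.000102). Txn2, its mitochondrial counterpart, was at 404 and 373 against 255 and 290, 1.41-fold higher in neurons (0.49 ± 0.14, adjusted p = 0.0172). The other tested Txn2 probe sets did not pass. The first read 291 and 279 against 267 and 305 (adjusted p = 0.991), and the second gave 0.40 (adjusted p = 0.119). The Txn2 call was lost with any 1 array left out (adjusted p from 0.0621 to 0.12) and with its probe sets averaged (adjusted p = 0.0979). Txnrd2, the mitochondrial reductase that recharges Txn2, was at 85 and 128 against 123 and 116 and did not pass (adjusted p = 0.523). Glrx, a glutaredoxin that strips glutathione from proteins, was at 322 and 234 against 307 and 328 and did not pass (adjusted p = 0.363).

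Txnip, whose product binds thioredoxin and restrains glucose uptake, was higher in astrocytes by both probe sets. It was at 149 and 214 in neurons and 836 and 992 in astrocytes, 4.83-fold higher (-2.27 ± 0.19, adjusted p = 1.45e-05). Its other probe set was at 3 and 15 against 173 and 169, at least 7.78-fold higher. That dimmer probe set was kept through the astrocyte arrays alone, so its direction is not independent of the filter. Txnip is a known glucose-induced gene, and the media held 33 mM glucose for astrocytes and 19.4 mM for neurons; cell type and glucose cannot be told apart here. Its promoter is shown for its pair of CACGAG boxes, known as a carbohydrate response element, in capitals 85 and 74 bases before the start.
Txnip (chr3:96557807-96557956, plus strand): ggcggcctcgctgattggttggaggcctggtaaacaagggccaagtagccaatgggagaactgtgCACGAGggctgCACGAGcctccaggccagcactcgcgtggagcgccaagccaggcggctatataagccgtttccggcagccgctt
A single CACGAG was in 6.47% of the 32851 promoters on either strand. The pair at this spacing was in 1, that of Txnip; the pattern was taken from it after it was seen, so the count only describes how rare the spacing is. Arrdc4, a relative of Txnip that is also known as glucose-induced, went the other way: it was at 224 and 256 in neurons and 84 and 92 in astrocytes, 2.51-fold higher in neurons (adjusted p = 0.000200).

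Gss, the enzyme of the last step of glutathione synthesis, was at 86 and 90 in neurons and 223 and 195 in astrocytes, 2.20-fold higher in astrocytes (-1.14 ± 0.17, adjusted p = 0.000513), and 3.10-fold by its other probe set. The list of 17 tested genes for glutathione synthesis, import, export and reduction also held breakdown genes (Chac1, Chac2, Ggt5 and Ggt7) and glyoxalases (Glo1 and Hagh). Of the 17, 8 were higher in astrocytes, among them Glo1, and 5 in neurons, among them Chac1 and Ggt7. The shares over all genes, which also apply to the lists that follow, were 31.1% and 31.0%. Gclc, the catalytic subunit of the rate-limiting ligase, was at 364 and 333 in neurons and 1261 and 1231 in astrocytes, 3.49-fold higher in astrocytes (adjusted p = 4.93e-06). Its modifier subunit Gclm, named after its value was seen, was 2.21-fold higher in astrocytes (485 and 419 against 970 and 1056).

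Slc1a1 and Slc7a11, which bring in cysteine or cystine, were both higher in neurons, while Slc3a2, a partner chain of Slc7a11, was higher in astrocytes. Slc1a1, the neuronal glutamate and cysteine transporter, was at 557 and 494 in neurons and 61 and 49 in astrocytes, 7.99-fold higher in neurons (adjusted p = 1.91e-06; log2 fold change 3.00, and 1.77 with its probe sets averaged). Slc7a11, the cystine-glutamate exchanger, was named after its value was seen and was kept through the neuron arrays alone. It was at 49 and 67 in neurons and 20 and 22 in astrocytes, 2.09-fold higher in neurons (adjusted p = 0.00540). Its call was lost without neurons replicate 2, astrocytes replicate 1 or astrocytes replicate 2 (adjusted p from 0.0528 to 0.0649), and its log2 fold change of 1.06 was 0.60 with the larger offset. Slc3a2, the heavy chain that pairs with Slc7a11 and with other amino acid transporters, was also named after its value was seen. It was at 717 and 924 in neurons and 1630 and 1888 in astrocytes, 2.14-fold higher in astrocytes (-1.10 ± 0.15, adjusted p = 0.000303).

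Among the 23 thioredoxin and glutaredoxin partners tested, 13 were higher in astrocytes and 7 in neurons. On the offset scale the largest difference was in Msrb3, a methionine sulfoxide reductase, at 4 and 5 in neurons and 325 and 358 in astrocytes, at least 15.5-fold higher there (adjusted p = 6.37e-07); its log2 fold change was -4.38, and -2.84 with the larger offset. Msrb3 was kept through the astrocyte arrays alone. Arrdc4 had the largest excess in neurons. Txnrd1, the reductase for Txn1, named after its value was seen, was at 492 and 468 in neurons and 961 and 977 in astrocytes. It was 1.99-fold higher in astrocytes (adjusted p = 0.000138), the opposite direction to Txn1.

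The NRF2 list had 13 of 20 tested genes higher in astrocytes and 4 in neurons. Nfe2l2, the gene for NRF2, was at 156 and 140 in neurons and 2851 and 2678 in astrocytes, 17.3-fold higher in astrocytes (-4.11, adjusted p = 1.41e-07). Its classical targets Hmox1 and Nqo1, named after their values were seen, were 4.43-fold and 2.54-fold higher in astrocytes (adjusted p = 4.80e-05 and 0.00374). Nqo1 did not pass with neurons replicate 2 or either astrocyte array left out (adjusted p from 0.0605 to 0.124). Bach2, a repressor that binds the same DNA element family, was at 315 and 435 against 152 and 136, 2.45-fold higher in neurons (adjusted p = 0.000406).

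Gpx1 to Gpx4 depend on selenoprotein synthesis and selenium uptake. The list for these had 8 of 19 tested genes higher in astrocytes, 3 in neurons and 8 that did not pass. It also held Selenbp1 and other selenoproteins, of which Selenbp1, Selenos and Selenon were higher in astrocytes and Selenow in neurons. Selenok, Selenot and Selenom did not pass. Among the synthesis genes, Sephs2 was higher in neurons, and Secisbp2, Secisbp2l and Sepsecs were higher in astrocytes. Selenop, the secreted selenium carrier, named after its value was seen, was at 697 and 447 in neurons and 3180 and 3293 in astrocytes, 5.69-fold higher in astrocytes (adjusted p = 8.77e-06). Its receptor in brain, Lrp8, was at 441 and 506 in neurons and 152 and 138 in astrocytes, 3.08-fold higher in neurons (adjusted p = 3.06e-05). Both genes were above background in both cultures. The receptor Lrp2 was 7.28-fold higher in astrocytes (adjusted p = 0.000411) but its neuron signals, 3 and 30, lay far apart against 179 and 170 in astrocytes. The log2 fold change of -2.86 became -2.14 with neurons replicate 1 left out and -3.59 with replicate 2 left out. Leaving out either astrocyte array ended the call (adjusted p = 0.0626 for replicate 1 and 0.0603 for replicate 2), and other offsets moved the value to -1.79 and -3.64.

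Of 9 tested relatives of the cytosolic or microsomal transferases, 4 were higher in neurons and 2 in astrocytes. Gdap1, a transferase-like protein of the outer mitochondrial membrane that is mutated in Charcot-Marie-Tooth neuropathy, was at 1983 and 1912 in neurons and 31 and 42 in astrocytes. It was 40.3-fold higher in neurons (adjusted p = 1.37e-07; log2 fold change 5.33, and 3.48 with its probe sets averaged). Clic1, a chloride channel protein with a transferase fold, was at 47 and 43 against 787 and 1192, 17.1-fold higher in astrocytes (adjusted p = 1.04e-06). Over all 88 tested partner genes of the 5 lists, 44 were higher in astrocytes and 23 in neurons. Among all genes, 31.1% and 31.0% were called, and the neuron count is near or below that share. Of the called partners, Msrb2, Msrb3, Maff, Osgin1 and Lrp2 were kept through the astrocyte arrays alone and Slc7a11 through the neuron arrays alone. With no filter, 38 partner genes were higher in astrocytes and 18 in neurons, where 18.4% and 18.6% of all genes were called. The counts of 44 and 23 fell with any 1 array left out, which leaves 1 array in a group, and so did the counts over all genes.

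**Figure D4:**
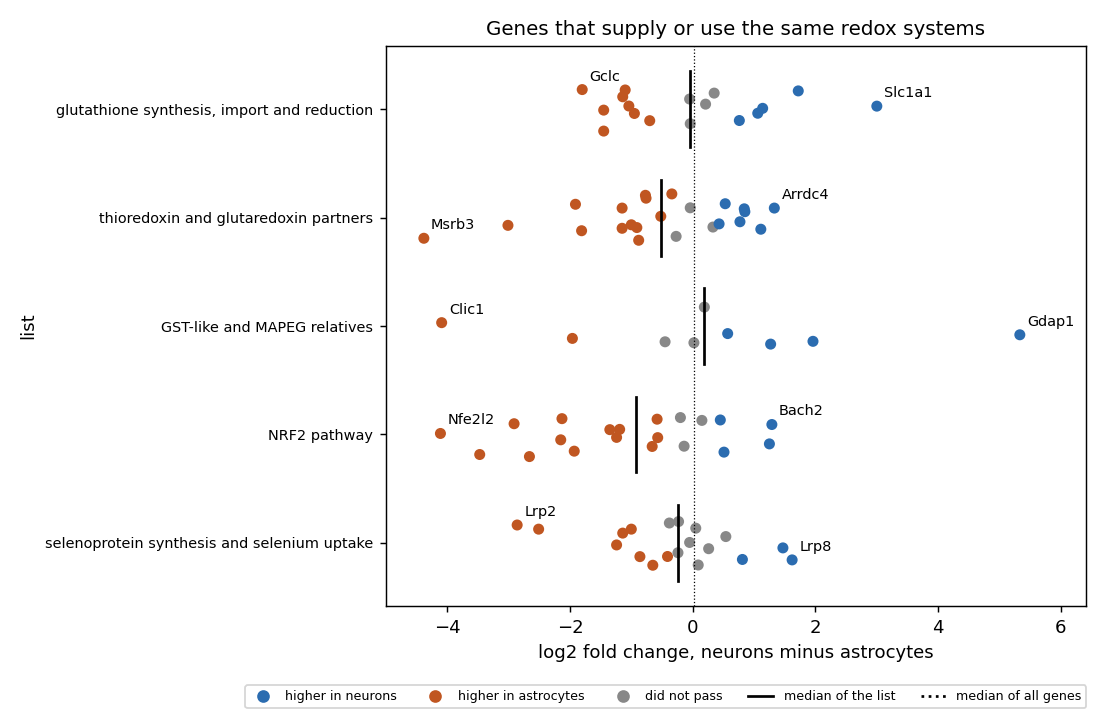
Log2 fold change (neurons minus astrocytes) of each tested gene in the 5 partner lists; colour gives the call, the black bar is the list's median and the dotted line the median of all genes. The NRF2 list has the lowest median (-0.93), and Gdap1 (5.33) and Msrb3 (-4.38) lie farthest out.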

How the data were processed

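RNA from 2 neuron and 2 astrocyte cultures was amplified through 2 cycles of cDNA synthesis, per the labels' protocols. The authors deposited 1 intensity per probe set on a linear scale, made with MAS5, per the submitters' processing notes, which name no version. The 2% trimmed mean was 150.0 on each array. Tests compared the same probe set between arrays; signals of different probe sets were ranked or summed only to choose the brightest probe set or member and to total marker lists, and the number of arrays limits the precision. Control probe sets (64) were left out. Probe sets with at least 2 arrays at or above the array's median were kept (25019) and tested with limma 3.58.1 in R 4.3.3 (lmFit, eBayes with trend, two-sided). The offset is the median of the arrays' 25th percentiles. On simulated neurons against astrocytes over 25019 probe sets, 31.3% of 2-fold, 97.0% of 4-fold and 100% of 8-fold changes were recovered. Of the calls there, 5.59% were false. Far fewer probe sets were changed in the simulation than were called in the data, so these shares need not hold for the data. Members, gene lists and the background rule were chosen with earlier results of these data known. Named with values on each array were members past the threshold by at least 2-fold, the brightest member of each family, probe sets of a gene called in opposite directions, and from each partner list the largest called difference in each direction. Values of other members, genes said to be named after their values were seen, and the carbohydrate boxes were added later. A planned search of proteins was not run. In all 13 alternatives were run.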

Additional observations from a re-analysis of the deposited data

How the results depend on the processing

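Of the 24 member genes called, 16 kept their call and direction in every alternative that held the gene, and 0 changed direction. With the larger or smaller offset, quantile normalization or no trend, no called member was lost; no filter lost 2, averaging probe sets lost 2, and leaving out 1 array lost 3 to 7. With 1 array left out, 13 to 18 members were higher in astrocytes and 3 to 4 in neurons (probe sets, 20 to 23 and 6 to 8; partner genes, 29 to 36 and 15 to 20). The median member log2 fold change was -0.60 with the larger offset, -0.26 with no filter, -0.54 with probe sets averaged, -0.92 with multiple-transcript probe sets removed, and -0.80 to -0.64 with 1 array left out. Genes that did not pass changed sign in some settings: with 1 array left out, Gstm6 (-0.45 to 0.10, and 0.07 without astrocytes replicate 2), Glrx (-0.42 to 0.02) and Txnrd2 (-0.44 to 0.09), Prdx2 with quantile normalization (-0.0025), and with probe sets averaged Sod1 (0.02) and Sod2 (0.36, adjusted p = 0.0296). The cause was not tested.

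The labels number the replicates alike in both groups but do not say that a number is shared. The differences between replicates correlated at -0.09 across probe sets between the groups. With the replicate block, 19 members were higher in astrocytes and 5 in neurons, 27 and 10 by probe set, with a median of -0.72; it changed no call of a member gene.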
